A study of Mus musculus with 48 samples.

Results

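Nuclear respiratory chain complex genes are the genes of the cell nucleus that encode the subunits and the named assembly factors of mitochondrial complexes I to IV and of the ATP synthase. Members were taken by symbol: mouse genes whose symbol starts with Nduf, Sdh, Uqcr or Atp5, or with Cox followed by a digit from 4 to 8, without symbols that end in -ps or ps1 and with a mean of at least 10 counts over all samples. The rule found 94 genes among 54838 in the table. Of 105 symbols that remained after that step, 11 fell below the minimum, and 7 of these 11 are annotated as processed pseudogenes. The least counted members were Cox4i2 (mean 20.8 counts), Cox7a1 (22.5) and Cox6a2 (37.1), and those just outside were Cox7b2 (9.7), Cox6c2 (9.0) and Cox8b (6.4). By role, 44 members belonged to complex I (7 core subunits, 29 accessory subunits and 8 assembly factors), 8 to complex II (4 subunits and 4 assembly factors), 8 to complex III, 17 to complex IV (12 common subunits and 5 alternative isoforms) and 16 to the ATP synthase (5 in the F1 head, 11 in the membrane part and stalks). Atp5s was left without a class. Ndufb1-ps, which ends in -ps and was left out by the rule, had a mean of 3452 counts.

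Tissue was taken from male mice deficient in Aag, a glycosylase that removes alkylated bases from DNA (Aag KO, gene symbol Mpg) and from wild-type (WT) males. Poly(A)-selected, stranded RNA libraries were made from the hippocampus and the prefrontal cortex on postnatal day 5 (P5), at 6 weeks (6W) and in adults (6M). The 12 groups of genotype, tissue and age held 4 animals each, 48 samples in all, and adults were pooled over an age range of months. The comparison of KO with WT asks what loss of the enzyme changes in the developing brain, and the comparison of ages follows each genotype from the newborn to the adult. The kind of knockout allele, the strain and the litters were not given in the sources used here. It was also not given whether both tissues came from the same animals.

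Oxidative phosphorylation passes electrons from NADH through complex I, or from succinate through complex II, to complex III and on to oxygen at complex IV, and the ATP synthase uses the proton gradient that complexes I, III and IV build. Most subunits are encoded in the nucleus and imported, a few are encoded by mitochondrial DNA, and complex II is wholly nuclear. Neurons depend on this system for the ATP that restores ion gradients after firing, and the brain's demand for it grows while synapses form and circuits become active.

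Levels below are CPM, a gene's read count scaled to a common library size, with TMM (trimmed mean of M-values), a factor per library that sets the bulk of genes level. Total counts ran from 21615824 to 47343993 a library. Mpg, the targeted gene, was at 0.944 to 2.53 CPM in the 24 KO samples and at 4.46 to 8.93 CPM in the WT samples, so every KO library lay below every WT library. Mitochondrially encoded RNA took 6.33% to 31.6% of the counts. It took 24.1% to 31.6% in replicate 1 of the WT and KO hippocampus at 6W and 6M, against at most 21.1% in the other hippocampus libraries, and these 4 libraries stand apart. In the prefrontal cortex, 7 of the 16 later libraries held 522 to 1035 CPM of summed striatal neuron markers, against at most 414 CPM in the other prefrontal libraries. Summed choroid plexus markers were at 2106 to 7876 CPM in the WT hippocampus at P5 and at 57.7 to 2058 CPM in the KO. In bulk tissue, fewer cells of a type and less RNA per cell cannot be told apart.

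Promoters of 5 members are printed because these genes carry the age results below and because members shared promoter letters that the choice by symbol did not use. Cox8a and Cox6a1 encode the 2 complex IV subunits that ranked highest per kilobase at 6W in WT, Uqcrh the complex III hinge protein, Sdha the catalytic flavoprotein of complex II and Atp5g2 a copy of the c-subunit of the ATP synthase. Sequences are from RefSeq on GRCm38.p6, each 250 bases before the gene's start and the first 10 after it, 5′ to 3′ on the gene's strand. Capitals mark exact matches to the letters GCGCATGCG on either strand (from the palindromic motif of NRF1, nuclear respiratory factor 1, so that matches on the strands can overlap) or to CCGGAAG, which reads CTTCCGG on the other strand (the core of the ETS family, to which NRF2/GABP belongs). The intervals are chr19:7217607-7217866 for Cox8a, chr5:115348949-115349208 for Cox6a1, chr4:116075061-116075320 for Uqcrh, chr13:74350231-74350490 for Sdha and chr15:102671038-102671297 for Atp5g2, all on the minus strand.
Cox8a: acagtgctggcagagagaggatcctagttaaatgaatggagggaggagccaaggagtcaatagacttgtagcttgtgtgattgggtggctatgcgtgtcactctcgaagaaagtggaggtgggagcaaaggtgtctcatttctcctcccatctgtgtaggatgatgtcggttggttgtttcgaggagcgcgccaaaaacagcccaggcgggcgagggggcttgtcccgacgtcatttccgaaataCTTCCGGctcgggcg
Cox6a1: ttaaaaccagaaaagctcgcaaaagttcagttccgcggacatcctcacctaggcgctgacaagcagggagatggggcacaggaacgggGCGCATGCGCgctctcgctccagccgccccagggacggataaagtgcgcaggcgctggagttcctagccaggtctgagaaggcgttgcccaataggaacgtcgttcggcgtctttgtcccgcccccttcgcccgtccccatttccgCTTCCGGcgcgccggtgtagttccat
Uqcrh: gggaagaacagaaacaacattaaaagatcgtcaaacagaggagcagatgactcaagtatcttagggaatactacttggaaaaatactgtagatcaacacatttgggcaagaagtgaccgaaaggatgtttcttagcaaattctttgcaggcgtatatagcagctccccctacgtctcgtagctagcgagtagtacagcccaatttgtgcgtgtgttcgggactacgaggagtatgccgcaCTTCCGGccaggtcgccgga
Sdha: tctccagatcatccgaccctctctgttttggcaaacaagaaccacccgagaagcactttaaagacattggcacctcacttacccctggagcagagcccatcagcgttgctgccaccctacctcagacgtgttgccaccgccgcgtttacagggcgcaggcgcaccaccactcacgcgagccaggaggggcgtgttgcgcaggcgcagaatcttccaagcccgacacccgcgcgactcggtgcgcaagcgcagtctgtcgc
Atp5g2: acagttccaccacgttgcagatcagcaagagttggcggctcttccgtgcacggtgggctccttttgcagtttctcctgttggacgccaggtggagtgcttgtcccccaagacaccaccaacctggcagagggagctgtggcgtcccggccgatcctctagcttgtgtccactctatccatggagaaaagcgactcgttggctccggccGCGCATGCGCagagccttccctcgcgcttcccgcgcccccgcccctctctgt
Cox8a and Uqcrh hold the ETS letters within a short distance of the start, and Cox6a1 holds both motifs. Atp5g2 holds the NRF1 letters, and Sdha holds no exact match to either. Near matches were not searched.

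RefSeq entries were matched for 78 of the 94 members. Over windows from 250 bases before to 50 after the start, searched on both strands, the NRF1 letters stood in 10 of the 78 member promoters (12.8%) and in 1.81% of all 27025 promoters in the table. The ETS letters stood in 20 (25.6%) against 9.12% of all, and the letters AAGATGGCG, a YY1 motif, stood in 7 (9.0%) against 1.49%. Both the NRF1 and the ETS letters stood in 4 members, and 32 held at least 1 of the 3 motifs. The YY1 letters stood in none of the 78 when only the 250 bases before the start were searched. The TATA box letters TATAAA stood in 7.7% of member promoters (95% exact binomial interval 2.9 to 16.0) and in 14.16% of all, which lies within that interval. Median GC content was 58.9% in member promoters and 52.7% in all, and no share was matched for GC. The members with the NRF1 letters were Atp5g2, Atp5k, Atp5l, Cox6a1, Ndufa11, Ndufa8, Ndufaf4, Ndufaf5, Uqcr11 and Uqcrc1.

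From P5 to 6W, most complexes gained transcripts relative to the bulk of genes. The summed level of the 94 members rose in WT hippocampus from 9267 ± 481 CPM (SD, n = 4) to 11370 ± 622 CPM, a ratio of 1.226. The WT prefrontal sum went from 9069 ± 267 to 10810 ± 555 CPM, a ratio of 1.192. The KO ratios were 1.235 in hippocampus and 1.236 in prefrontal cortex. The plot of summed levels by group shows each of the 16 P5 libraries against the later ones.

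**Figure D1:**
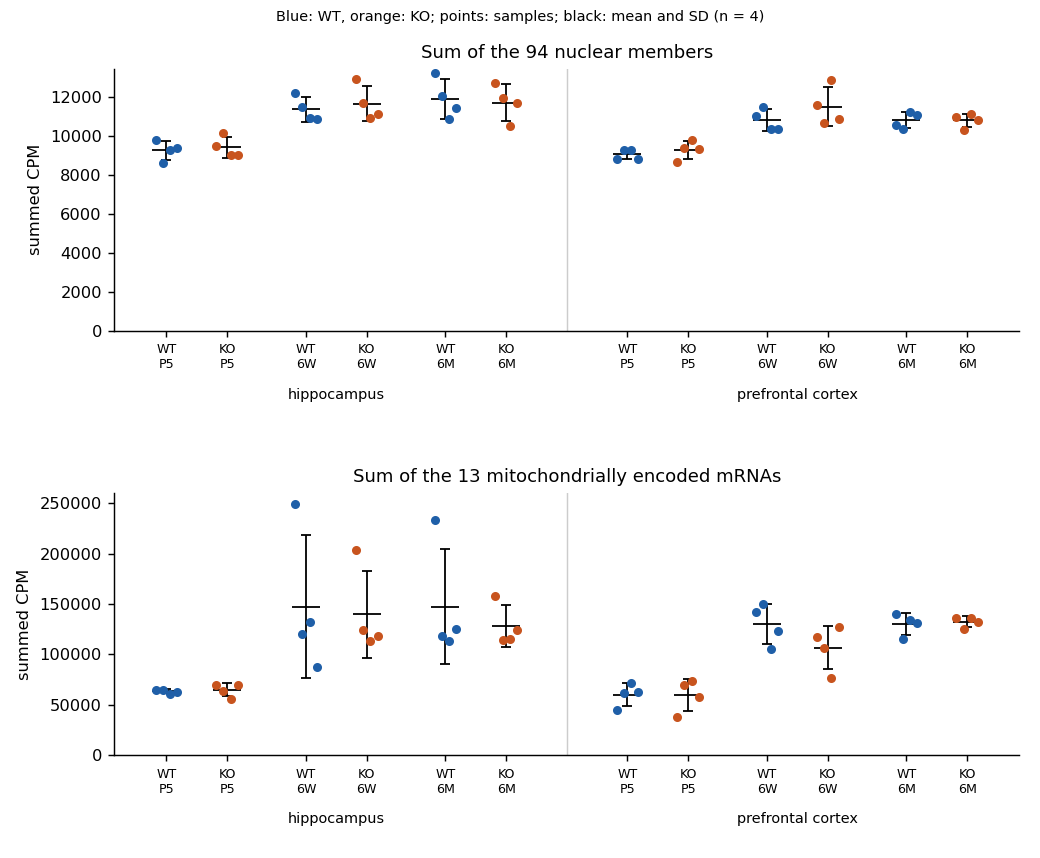
Summed CPM (TMM-scaled) in each of the 48 libraries, by tissue, genotype and age, of the 94 members (upper panel) and of the 13 mitochondrially encoded mRNAs (lower panel), with points for animals and black bars for the mean and SD. In WT hippocampus the mean of the members goes from 9267 CPM at P5 to 11370 CPM at 6W, and the step from 6W to 6M is small beside it; in the lower panel 1 library stands above the others in each hippocampus group at 6W and 6M.

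In WT hippocampus 50 members rose and 7 fell (edgeR quasi-likelihood test, Benjamini-Hochberg adjusted p under 0.05 over all genes tested), against a background of 31.4% of all tested genes higher and 30.6% lower. KO hippocampus had 48 up and 3 down, against 31.2% and 31.0%. In WT prefrontal cortex 41 rose and 6 fell, against 30.6% and 30.3%, and in KO prefrontal cortex 46 rose and 9 fell, against 30.2% and 31.2%. All 94 members were tested in every fit. The median log2 difference over members was 0.25, 0.28, 0.20 and 0.24 in these 4 steps, and over all genes 0.02, 0.01, 0.00 and -0.02. Levels of 39 members in WT hippocampus were higher in all 4 later animals than in all 4 P5 animals, and 6 were lower in all, against 26.3% and 26.6% of genes tested.

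The same 34 members were called higher in all 4 steps, 36.2% of members against 21.2% of genes tested in both tissues. Only Atp5g2 and Atp5g3 were called lower in all 4, 2.13% against 21.7%, and 26 members (27.7%, against 18.4%) were called in none. No member was called higher in one step and lower in another. Over the 94 members, the log2 differences of WT and KO, which come from separate animals, had a Pearson r of 0.93 in hippocampus and of 0.93 in prefrontal cortex. The signs were the same for 88 members in hippocampus and for 87 in prefrontal cortex. Genes are not independent replicates, so no test goes with these values.

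How the libraries are scaled decides how much of this is seen as a rise. With library size set by total counts alone, the median of all genes moved to -0.30, -0.28, -0.20 and -0.20 in the 4 steps and the members' medians to -0.08, -0.02, 0.00 and 0.07. On that scale 12 members were higher and 30 lower in WT hippocampus, against 18.0% and 45.2% of all genes tested, and 17 and 26 in KO hippocampus, against 19.7% and 44.4%. In WT prefrontal cortex 18 were higher and 21 lower, against 22.9% and 39.1%, and in KO prefrontal cortex 30 and 11, against 23.8% and 38.7%. As a plain share of all counts, the members together went from 1.078% ± 0.051 (SD, n = 4) at P5 to 1.052% ± 0.041 at 6W in WT hippocampus, and from 1.001% ± 0.051 to 1.028% ± 0.044 in WT prefrontal cortex. Over the same step the mitochondrially encoded share of counts went from 11.8% ± 0.826 to 21.01% ± 7.18 in WT hippocampus. Relative to nuclear-encoded counts only, the members went from 1.222% ± 0.059 to 1.338% ± 0.092 there. At 6W replicate 1, of high mitochondrial share, was at 1.463% and the others of its group at 1.269% to 1.352%. Under both scalings 8 members were higher in all 4 steps (Cox6a2, Cox8a, Ndufb9, Ndufs1, Ndufs7, Sdha, Sdhaf3 and Sdhaf4), and Atp5g2 and Atp5g3 were lower. Directions below are those relative to the bulk of genes, and for other members that a paragraph calls higher the total-count value can lie near 0 or below it. Members said not to pass can be called lower with total counts only.

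**Figure D2:**
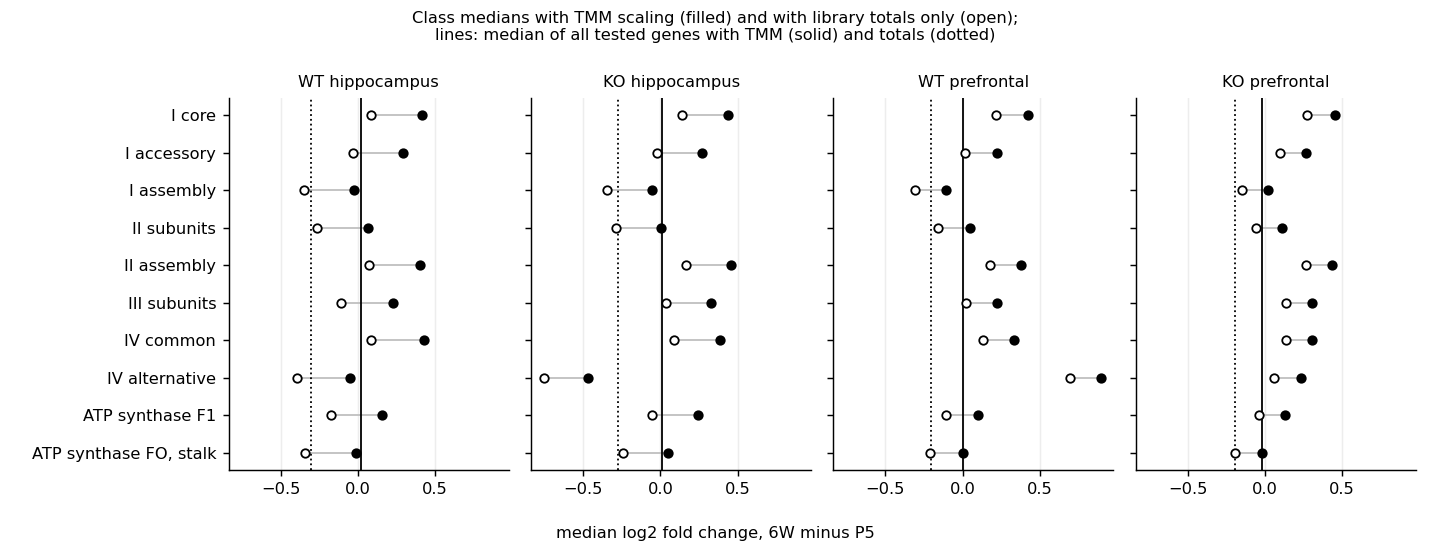
Median log2 difference from P5 to 6W of the members of each class (x axis), 1 panel per step, with TMM scaling (filled points) and with total counts only (open points); vertical lines are the median of all tested genes with TMM (solid) and with total counts only (dotted). In WT hippocampus the all-gene median goes to -0.30 with total counts only, and the class medians move down by about as much, the complex I core from 0.41 to 0.08.

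Complex I feeds electrons from NADH into the chain, and its 7 nuclear core subunits carry the flavin and iron-sulfur clusters. In WT hippocampus 6 of the 7 rose, in KO hippocampus 6, in WT prefrontal cortex 4 and in KO prefrontal cortex 6, and none fell; with total counts only, 3, 3, 3 and 5 rose and 1 fell, in WT prefrontal cortex. Ndufs1, the largest iron-sulfur subunit, was at 55.4, 52.4, 57.7 and 69.0 CPM in the 4 WT hippocampus samples at P5. At 6W it was at 95.9, 104.5, 96.5 and 96.5 CPM, so the groups did not overlap. The log2 difference was 0.75 (SE 0.08, adjusted p = 8.47e-09), and it was 0.71, 0.45 and 0.72 in KO hippocampus, WT prefrontal cortex and KO prefrontal cortex. Ndufs7, which holds the last cluster before ubiquinone, rose by 0.67, 0.77, 0.78 and 0.71 in the same order. Ndufv1, which binds NADH and the flavin, passed in none of the 4 steps, with differences from -0.09 to 0.09.

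Accessory subunits surround the core and are needed to build a stable complex. Of 29, 17 rose in WT hippocampus, 14 in KO hippocampus, 16 in WT prefrontal cortex and 15 in KO prefrontal cortex. None fell except 2 in KO prefrontal cortex, among them Ndufv3 (-0.30, SE 0.09, adjusted p = 0.00393). With total counts only the counts up and down became 2 and 9, 2 and 6, 4 and 5, and 10 and 2. Ndufb9, in the membrane arm, had the largest rise among those whose groups did not overlap in WT hippocampus (0.63, SE 0.10, adjusted p = 8.86e-06) and in KO hippocampus (0.60). In prefrontal cortex that place was taken by Ndufb10 in WT (0.58) and by Ndufb3 in KO (0.61).

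Assembly factors of complex I did not move as one group: of 8, 2, 2, 3 and 3 rose and 1, 0, 2 and 2 fell in WT hippocampus, KO hippocampus, WT prefrontal cortex and KO prefrontal cortex. With total counts only 0, 1, 3 and 3 rose and 5, 5, 4 and 2 fell, and neither Ndufaf1 nor Ndufaf3 passed in WT hippocampus. Ndufaf1, a chaperone of the membrane arm, rose by 0.54, 0.45, 0.59 and 0.65 in WT hippocampus, KO hippocampus, WT prefrontal cortex and KO prefrontal cortex, and Ndufaf3 by 0.45, 0.55, 0.54 and 0.62. Ndufaf8, a partner of Ndufaf5, passed in prefrontal cortex (0.76 in WT and 0.80 in KO), and was at 0.40 and 0.30 in hippocampus without passing; the test of the difference between tissues did not pass. Ndufaf5, which modifies the core subunit Ndufs7, fell in WT prefrontal cortex (-0.51, SE 0.11, adjusted p = 0.000168) and KO prefrontal cortex (-0.36) and was at -0.14 and -0.10 in hippocampus. Ndufaf6 fell by 0.39 in WT hippocampus, by 0.45 in WT prefrontal cortex and by 0.48 in KO prefrontal cortex, and was at -0.27 in KO hippocampus without passing.

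Complex II, succinate dehydrogenase, is shared by the respiratory chain and the citric acid cycle, and its 4 subunits went apart. Sdha, the flavoprotein that oxidises succinate, was at 87.3, 91.0, 85.4 and 108.2 CPM in WT hippocampus at P5 and at 223.8, 254.6, 240.9 and 260.3 CPM at 6W. The WT prefrontal animals were at 88.5, 94.2, 87.7 and 85.3 CPM at P5 and at 247.8, 222.1, 241.3 and 214.3 CPM at 6W. All 16 P5 samples, KO included, lay between 83.0 and 109.2 CPM and all 32 later samples between 210.9 and 298.4 CPM. The log2 differences were 1.40 (SE 0.09, adjusted p = 1.24e-13) in WT hippocampus, 1.31 in KO hippocampus, 1.37 (SE 0.08, adjusted p = 4.36e-13) in WT prefrontal cortex and 1.40 in KO prefrontal cortex. Sdha had the smallest adjusted p of all members in each of the 4 steps.

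None of the other 3 subunits rose. Sdhb, the iron-sulfur subunit that receives the electrons from Sdha, differed by 0.16, 0.03, 0.09 and 0.22 without passing. Sdhc, a membrane anchor, differed by -0.03 to 0.00. Sdhd, the second anchor, was called lower in WT hippocampus (-0.23, adjusted p = 0.019), with -0.11 to -0.14 in the other steps. With total counts only, 2, 3, 1 and 1 of the 4 subunits were called lower in the 4 steps. Sdhd was lower in all 4 on that scale, Sdhc in WT (-0.364) and KO hippocampus (-0.315), and Sdhb in KO hippocampus (-0.265). Per kilobase of exons, Sdha in WT hippocampus was at 22.5 CPM at P5, below Sdhb (34.4), Sdhc (28.9) and Sdhd (36.7). At 6W it was at 59.4 CPM per kilobase, above Sdhb (38.3), Sdhc (28.3) and Sdhd (31.4). With the longest transcript as the length, Sdha went from 32.1 to 84.5 and Sdhb from 62.5 to 69.6, while Sdhc, at 29.6 at P5, then lay below Sdha and not above it. Among the assembly factors of complex II, Sdhaf3 (0.65, 0.87, 0.85 and 0.96) and Sdhaf4 (0.57, 0.63, 0.55 and 0.71) rose in all 4 steps under both scalings. Sdhaf4 is known to help bring the flavinated Sdha to Sdhb, and Sdhaf3 to help mature the iron-sulfur subunit.

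**Figure D3:**
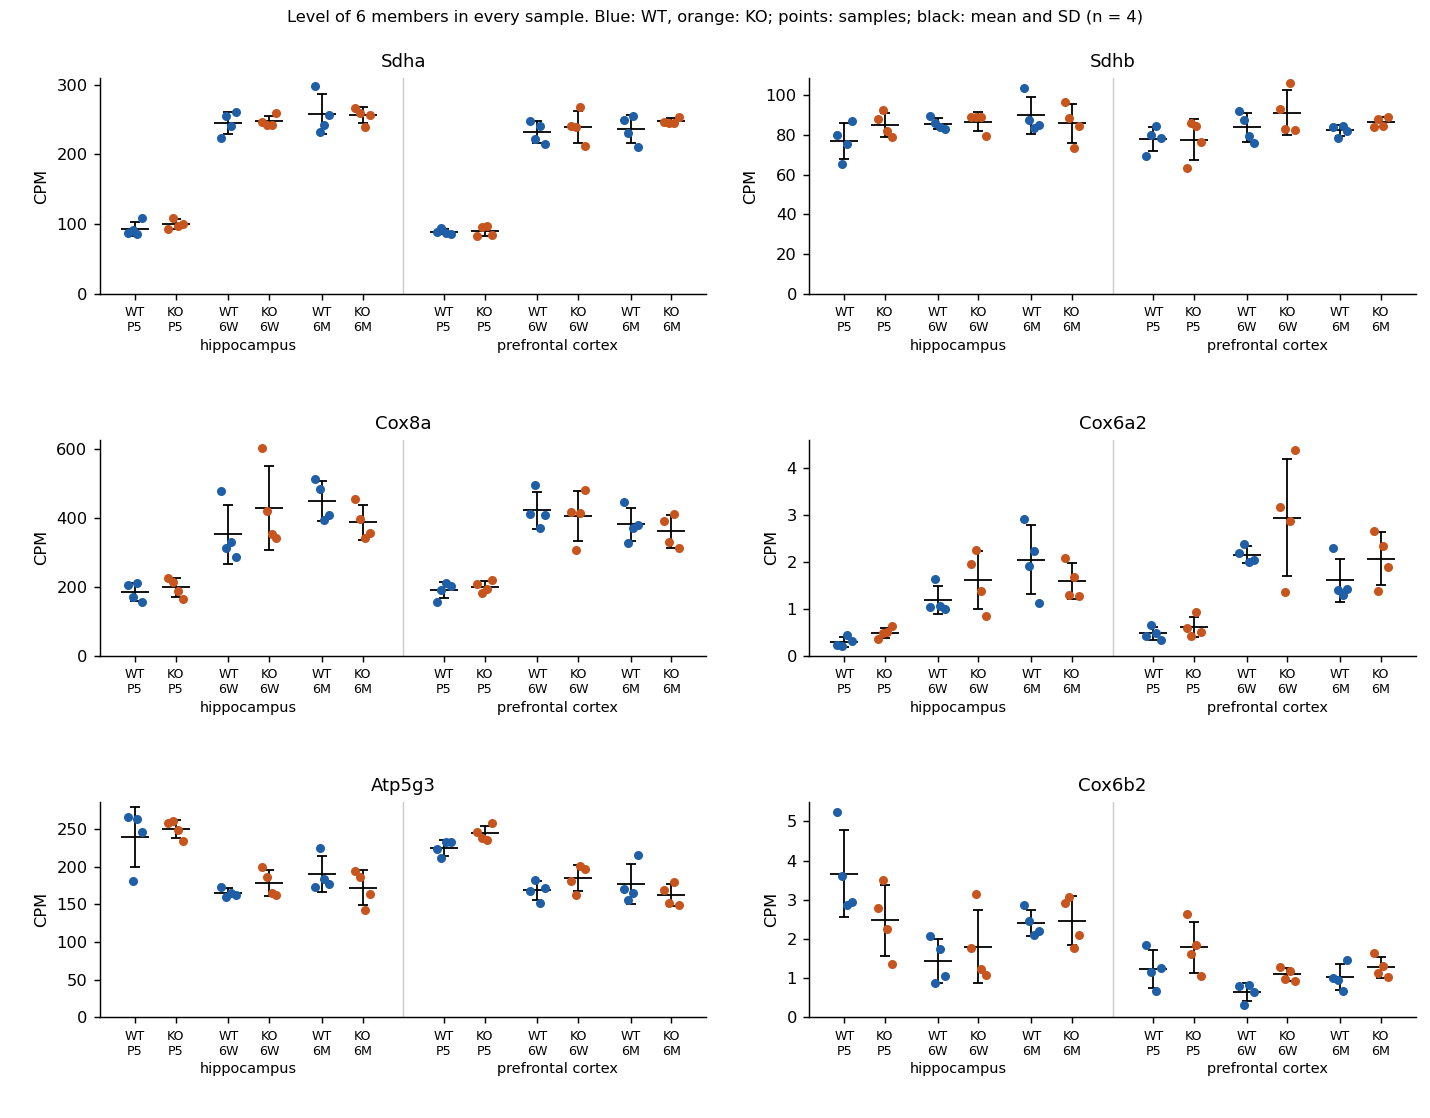
CPM (TMM-scaled, linear axes that start at 0) of 6 members in the 4 animals of each group, by age, tissue and genotype, with points for animals and black bars for the mean and SD. Sdha lies between 83.0 and 109.2 CPM in the P5 samples and between 210.9 and 298.4 CPM later, while Atp5g3 goes the other way.

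Complex III passes electrons from ubiquinol to cytochrome c. Of its 8 members, 4 rose in WT hippocampus, 5 in KO hippocampus, 4 in WT prefrontal cortex and 4 in KO prefrontal cortex, and none fell; with total counts only, 0, 1, 1 and 2 rose and 2, 1, 1 and 0 fell. Uqcrh, the hinge protein at the cytochrome c1 site, was at 190.8, 150.1, 147.3 and 158.6 CPM in WT hippocampus at P5 and at 284.5, 250.4, 209.2 and 214.7 CPM at 6W. Its groups did not overlap, and the log2 difference was 0.57 (SE 0.12, adjusted p = 0.000154), with 0.59, 0.53 and 0.59 in KO hippocampus, WT prefrontal cortex and KO prefrontal cortex. Uqcrc1, a core protein, differed by 0.13 to 0.22 and Uqcrfs1, the Rieske iron-sulfur protein that carries the catalysis, by -0.10 to 0.12, and neither passed in any step.

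Complex IV reduces oxygen to water, and several of its nuclear subunits exist as pairs of tissue isoforms. Of the 12 common subunits, 8 rose in WT hippocampus, 7 in KO hippocampus, 6 in WT prefrontal cortex and 8 in KO prefrontal cortex; with total counts only, 2, 4, 2 and 3 rose and 2, 2, 1 and 0 fell. Cox8a, a small membrane subunit, was at 206.3, 168.7, 209.7 and 156.3 CPM in WT hippocampus at P5 and at 479.2, 312.2, 329.8 and 287.7 CPM at 6W. Prefrontal Cox8a in WT went from 156.3, 191.2, 210.1 and 201.2 CPM to 412.6, 496.8, 369.4 and 408.7 CPM. Every 6W animal lay above every P5 animal in both tissues. The rise was 0.93 (SE 0.17, adjusted p = 2.37e-05) in WT hippocampus, 1.12 in KO hippocampus, 1.14 (SE 0.13, adjusted p = 2.79e-08) in WT prefrontal cortex and 1.01 in KO prefrontal cortex.

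Cox4i1, the regulatory subunit that binds adenine nucleotides, rose by 0.56, 0.56, 0.62 and 0.64 in WT hippocampus, KO hippocampus, WT prefrontal cortex and KO prefrontal cortex. Cox6a1 (0.41, 0.31, 0.39 and 0.35), Cox6c (0.64, 0.62, 0.36 and 0.52) and Cox7b (0.49, 0.52, 0.37 and 0.46) rose too. Cox6b1, which faces cytochrome c, did not pass, with differences from -0.02 to 0.05. With total counts only it was called lower in WT hippocampus (-0.352, adjusted p = 0.00444 by edgeR) and KO hippocampus (-0.246, adjusted p = 0.0407 by edgeR). Cox5a, a subunit on the matrix side, was called lower in WT prefrontal cortex (-0.25, adjusted p = 0.0384). Per kilobase, Cox6a1 was the highest member at P5 (405.8 CPM in WT hippocampus and 420.5 in WT prefrontal cortex), with Cox8a second at 299.3 and 306.5. With the longest transcript as the length, Cox6a1 was still first at P5, but Cox4i1 (358.5) and Cox7a2 (358.1) lay above Cox8a (336.8) in WT hippocampus, and Cox7a2 (364.7) above Cox8a (344.9) in WT prefrontal cortex. At 6W Cox8a was first with either length, at 569.0 and 681.6 by the union of exons. The plot of differences by class sets the complexes side by side.

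**Figure D4:**
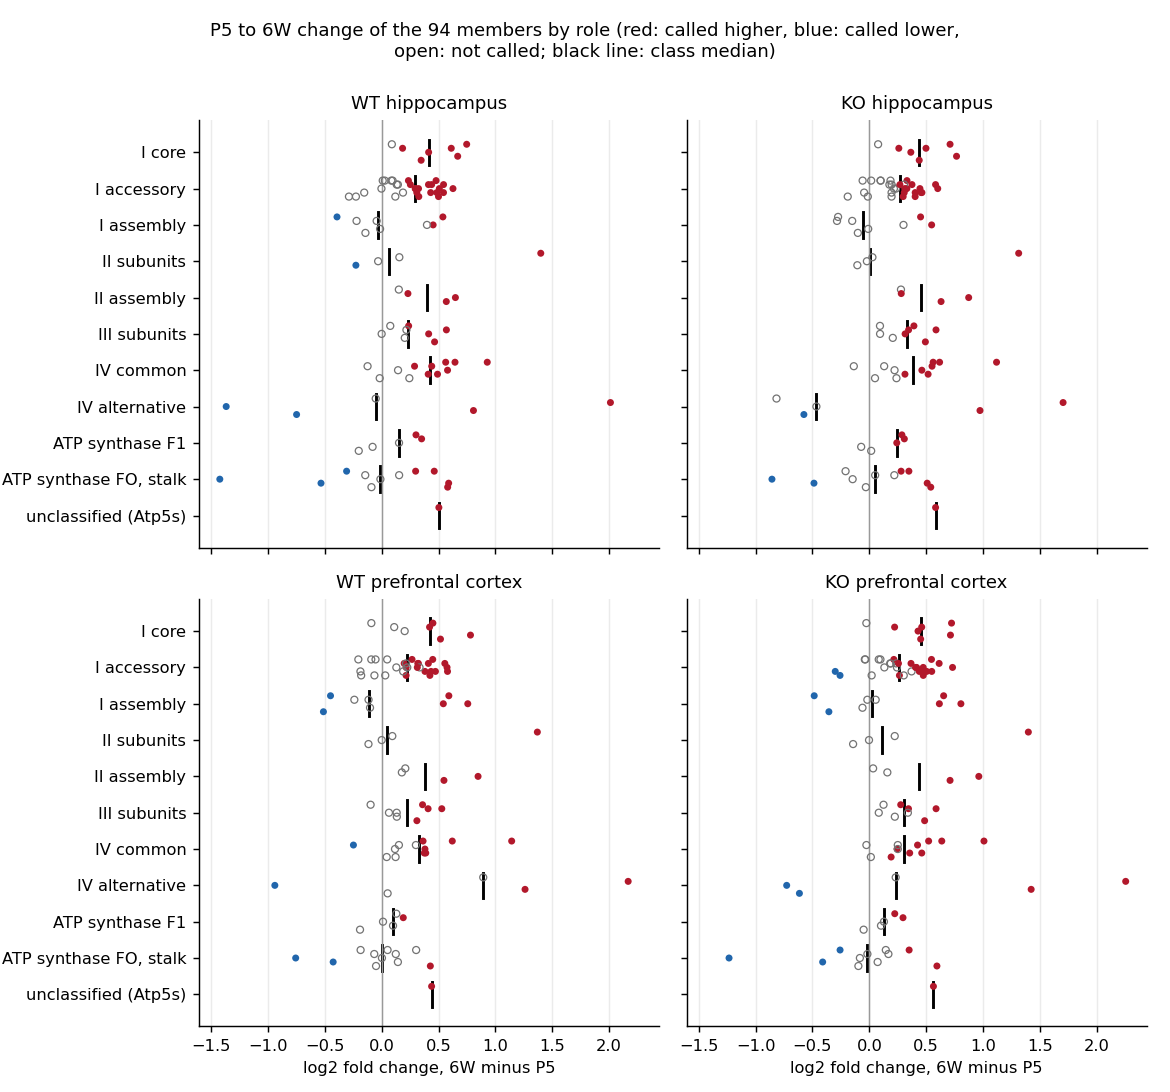
Log2 difference in CPM (TMM-scaled) from P5 to 6W for each of the 94 members, grouped by complex and role, in the 4 combinations of genotype and tissue, with filled points for called members. Complex I core subunits and common complex IV subunits lie mostly above 0, with medians of 0.41 and 0.42 in WT hippocampus, while the membrane part of the ATP synthase lies around 0.

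The alternative isoforms of complex IV were a small part of their families at every age, and they went in different directions. Cox6a2, the isoform known from heart and skeletal muscle, was at 0.228, 0.208, 0.430 and 0.301 CPM (6 to 12 counts) in WT hippocampus at P5 and at 1.04, 1.64, 1.07 and 0.995 CPM (21 to 38 counts) at 6W. Prefrontal Cox6a2 in WT went from 0.417, 0.663, 0.481 and 0.330 CPM to 2.2, 2.39, 1.995 and 2.05 CPM, again without overlap. The rise was 2.01 (SE 0.36, adjusted p = 2.11e-05) in WT hippocampus, 1.70 in KO hippocampus, 2.17 in WT prefrontal cortex and 2.25 in KO prefrontal cortex, the largest positive value among members in each step. Per length, Cox6a2 went from 0.106% to 0.331% of the Cox6a pair in WT hippocampus and from 0.165% to 0.570% in WT prefrontal cortex. Cox7a1, another muscle isoform, rose by 0.81, 0.97, 1.26 and 1.42, and was at 0.405 to 0.905 CPM in the hippocampus and 0.286 to 0.599 CPM in the prefrontal cortex at P5. Summed skeletal muscle markers (7 genes) went from 5.85 to 9.29 CPM at P5 to 10.8 to 12.7 CPM at 6W in WT hippocampus and from 12.4 to 14.4 CPM to 16.1 to 18.6 CPM in WT prefrontal cortex. Of the 5 markers that could be tested, total counts only called 0, 0, 1 and 0 higher and 1, 1, 2 and 1 lower. The order is WT hippocampus, KO hippocampus, WT prefrontal cortex and KO prefrontal cortex. The part of these markers in the Cox6a2 and Cox7a1 values was not tested.

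Cox6b2, the testis isoform of Cox6b, fell in WT hippocampus from 5.25, 3.60, 2.86 and 2.95 CPM to 2.08, 0.865, 1.75 and 1.06 CPM (-1.37, SE 0.32, adjusted p = 0.000529). It also fell in WT prefrontal cortex (-0.94, adjusted p = 0.0165) and KO prefrontal cortex (-0.73, adjusted p = 0.0442), and was at -0.47 (adjusted p = 0.203) in KO hippocampus, where it passed with total counts only (-0.75, adjusted p = 0.0356). Its share of the Cox6b pair per length went from 1.498% to 0.601% in WT hippocampus by the union of exons, and from 2.45% to 0.989% by the longest transcript. Summed choroid plexus markers (10 genes, none at 0) went from 2106 to 7876 CPM at P5 to 260.5 to 1989 CPM at 6W in WT hippocampus, and were at 57.7 to 2058 CPM at P5 and 336.8 to 6726 CPM at 6W in KO hippocampus, where the 6W animal with 6726 CPM of markers also had the highest Cox6b2 of its group (3.14 CPM). In WT hippocampus at P5 replicates 1 and 2 were highest in both. Not all animals lined up that way: in WT hippocampus the highest marker sum at 6W (1989 CPM) went with the second lowest Cox6b2 (1.06 CPM), and the highest at 6M (3878 CPM) with the lowest (2.11 CPM). In WT prefrontal cortex, where Cox6b2 also fell, the marker sums were at 65.2 to 86.3 CPM at P5 and at 262.2 to 354.6 CPM at 6W. The markers did not rise together there: with total counts only, 2 of 9 tested were called higher and 3 lower. Their part in the Cox6b2 values was not tested. Ndufa4l2, a hypoxia-inducible relative of the complex IV subunit Ndufa4, fell by 0.75 in WT hippocampus, 0.58 in KO hippocampus and 0.61 in KO prefrontal cortex, and was at 0.05 in WT prefrontal cortex. Cox4i2, the lung isoform of Cox4, passed in none of the steps, with values from -0.82 to 0.89 at 6 to 40 counts a library; with total counts only it was called lower in KO hippocampus (-1.11, adjusted p = 0.0104 by edgeR). Summed mural cell markers (8 genes) were at 242.5 to 283.7 CPM in WT hippocampus at P5 and at 188.1 to 216.6 CPM at 6W, and their part in the Ndufa4l2 and Cox4i2 values was not tested.

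The ATP synthase turns the proton gradient into ATP. In its F1 head, where ATP is made, 2, 3, 1 and 2 of 5 members rose and none fell. The order is WT hippocampus, KO hippocampus, WT prefrontal cortex and KO prefrontal cortex. With total counts only, none rose and 2, 1, 2 and 0 fell. Atp5b, the catalytic beta subunit, rose by 0.35, 0.31, 0.19 and 0.30 in the same order. With total counts only it passed in none of the steps and was at -0.02 in WT prefrontal cortex. Atp5a1, the alpha subunit, rose by 0.30, 0.29 and 0.22 and was at 0.13 in WT prefrontal cortex without passing; with total counts only it was at -0.02 and 0.00 in WT and KO hippocampus. Of the 11 genes of the membrane part and stalks, 4 rose and 3 fell in WT hippocampus, 4 and 2 in KO hippocampus, 1 and 2 in WT prefrontal cortex, and 2 and 3 in KO prefrontal cortex. Their medians were -0.01, 0.05, 0.00 and -0.02; with total counts only, 1, 1, 0 and 1 rose and 6, 5, 5 and 4 fell. Atp5h, the d subunit of the peripheral stalk, rose in all 4 steps by 0.58, 0.54, 0.43 and 0.59. Of the 31-base words of Atp5h 25.4% also occur in other genes, and of those of Atp5g2 40.2%, so reads of these genes could have been split or discarded in counting.

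The c-ring through which protons pass is made of 1 protein encoded by 3 genes. Atp5g3, the most abundant of them, was at 266.3, 180.9, 263.5 and 245.5 CPM in WT hippocampus at P5 and at 173.2, 159.3, 165.5 and 162.1 CPM at 6W. Prefrontal Atp5g3 in WT went from 222.8, 211.3, 232.3 and 232.3 CPM to 168.0, 182.4, 151.3 and 172.0 CPM. In both tissues every 6W animal lay below every P5 animal, and the difference was -0.53 (SE 0.11, adjusted p = 0.00016) and -0.43 (adjusted p = 0.000402), with -0.49 and -0.41 in the KO. Atp5g2 fell from 21.3, 17.4, 18.9 and 18.3 CPM to 7.58, 7.95, 5.92 and 6.83 CPM in WT hippocampus (-1.42, SE 0.27, adjusted p = 5.1e-05). Prefrontal Atp5g2 in WT went from 7.89, 20.4, 10.3 and 23.3 CPM to 4.89, 11.8, 6.66 and 13.6 CPM, where the ages overlapped (-0.76, adjusted p = 0.0346). Atp5g1, the third gene, differed by -0.14 to 0.05 without passing. With total counts only it was called lower in WT hippocampus (-0.474, adjusted p = 0.00108 by edgeR) and WT prefrontal cortex (-0.268, adjusted p = 0.015 by edgeR). Per length its share of the 3 went from 15.7% ± 1.22 (SD, n = 4) to 20.3% ± 0.956 in WT hippocampus and from 16.7% ± 0.825 to 20.8% ± 1.20 in WT prefrontal cortex, with the union of a gene's exons as its length. With the longest transcript that share was 7.22% and 9.55% in WT hippocampus and 7.70% and 9.84% in WT prefrontal cortex.

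Set against the motifs in the promoters, the 10 members with the NRF1 letters had a median step of 0.10 in WT hippocampus, against 0.27 for the 68 matched members without them, and of 0.14 against 0.20 in WT prefrontal cortex. The 20 members with the ETS letters had medians of 0.29 and 0.21, against 0.24 and 0.19 without. The 10 include both Cox6a1, which rose, and Atp5g2, which fell, as printed above. These are descriptions of letters in a window, with no test.

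Other genes of energy metabolism and of the mitochondrion were followed from lists drawn up by function. All mitochondrially encoded messengers that could be tested rose in WT hippocampus (10 of 10, median 1.27), as did 9, 8 and 8 in KO hippocampus, WT prefrontal cortex and KO prefrontal cortex, with medians of 1.12, 1.16 and 0.79. Of 17 gene IDs for 16 glycolysis symbols (Aldoa has a pair of IDs), 14, 14, 14 and 13 rose and 1, 1, 1 and 0 fell, with medians from 0.88 to 1.03. Of 16 genes of the citric acid cycle and of pyruvate oxidation, 11, 10, 9 and 10 rose and 1, 1, 2 and 2 fell, with medians from 0.44 to 0.51. With total counts only these 3 lists kept positive medians in all 4 steps. The 77 tested mitochondrial ribosome genes had 16, 18, 16 and 16 up and 11, 11, 15 and 16 down; with total counts only, 3, 4, 3 and 7 were up and 41, 46, 33 and 29 down. Of 16 genes of the outer membrane, protein import, chaperones, prohibitins and ATP carriers, 5, 5, 2 and 3 rose and 6, 6, 6 and 5 fell; with total counts only, 1, 1, 0 and 2 rose and 10, 8, 10 and 7 fell. The 85 cytosolic ribosome genes had 48, 53, 73 and 73 down and at most 2 up.

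Regulators of mitochondrial gene expression were followed too. Esrrg, an orphan nuclear receptor that acts on oxidative genes, rose by 0.94 in WT hippocampus and 1.08 in WT prefrontal cortex, and its relative Esrra by 0.75 and 0.54. The coactivator Ppargc1b rose by 0.95 and 1.57 and its better known relative Ppargc1a by 0.41 and 0.58; with total counts only, Ppargc1a was at 0.10 and 0.38 and Esrra at 0.42 and 0.34. Nrf1, whose protein binds the letters shown above, fell by 0.54 and 0.67, and Pprc1, another coactivator of the family, fell by 0.75 and 1.12. Tfam, which packages mitochondrial DNA, differed by 0.02 and -0.14 without passing. In all, 4, 6, 6 and 6 of 14 regulators rose and 3, 3, 5 and 5 fell; with total counts only, 3, 3, 4 and 5 rose and 8, 6, 7 and 6 fell.

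Several lists of cell type markers had larger medians over the same step than the members. Of 8 markers of immature neurons all fell, with medians from -3.51 to -4.27. All 8 oligodendrocyte markers rose, with medians from 5.43 to 6.56, as did 7 of 8 neuron markers, with medians from 1.27 to 1.55, and all 6 microglia markers. Astrocyte markers had medians from 0.69 to 0.82 and endothelial markers from 0.31 to 0.77. With total counts only, 5, 5, 6 and 5 of 8 inhibitory neuron markers rose and 1, 0, 0 and 0 fell, with medians from 0.93 to 1.32. Of 10 choroid plexus markers 1 rose and 6 fell in WT hippocampus (median -2.39), and 3 rose and 0 fell in KO hippocampus (median 0.68). The part of a changing cell mixture in the members' values was not tested. Without the 4 hippocampus libraries of high mitochondrial share, 48 members rose and 10 fell in WT hippocampus and 44 rose and 4 fell in KO hippocampus. Without the 7 prefrontal libraries of high striatal markers, 29 rose and 6 fell in WT prefrontal cortex and 33 rose and 6 fell in KO prefrontal cortex. These fits held fewer libraries, so the backgrounds of the full fits do not apply to these counts.

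The later step was small beside this one. From 6W to 6M no member was called in any of the 4 steps (edgeR), against a background of 0.157% of genes in WT hippocampus, 0.45% in KO hippocampus, 0.0386% in WT prefrontal cortex and 0.0937% in KO prefrontal cortex. The ratios of summed levels were 1.045, 1.004, 1.001 and 0.942. At an unadjusted p under 0.05 there were 9 members in WT hippocampus (background 10.5% of genes), 0 in KO hippocampus (6.76%), 2 in WT prefrontal cortex (4.74%) and 11 in KO prefrontal cortex (11.1%). All 11 of the last were lower at 6M. In replicate 3 of the KO prefrontal cortex at 6W the members took 1.318% of the counts, the highest share of the 48 libraries, against 1.022% to 1.115% in the rest of its group, and it had 1035 CPM of striatal markers. Without it the ratio of summed levels was 0.979, and 2 members were at an unadjusted p under 0.05 (background 8.47%). Atp5g1 in KO prefrontal cortex had the smallest adjusted p (-0.38, SE 0.09, adjusted p = 0.113), and it was at -0.26 (adjusted p = 0.788) in WT prefrontal cortex. DESeq2 called 1 member in KO prefrontal cortex and total counts only called 1 there.

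No member differed between KO and WT by the test. KO against WT was called for 0 of 94 members in hippocampus at P5 (background 0.118%), 6W (0.0394%) and 6M (0.045%), and over the ages (0.0675%). It was also 0 in prefrontal cortex at P5 (0.0496%), 6W (0.0331%), 6M (0.0331%) and over the ages (0.0661%). At an unadjusted p under 0.05 edgeR gave 3, 0, 1 and 1 members in hippocampus (background 7.83%, 4.32%, 3.24% and 5.84% of genes) and 5, 6, 0 and 5 in prefrontal cortex (8.28%, 3.38%, 1.73% and 5.14%), in the same order. DESeq2 also called none. The median standard error of a member's log2 difference was 0.11 in either tissue, so small differences could not be seen at this size.

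Sdha in hippocampus shows how close the genotypes lay. At P5 the KO animals were at 93.1, 109.2, 96.6 and 99.9 CPM and the WT animals at 87.3, 91.0, 85.4 and 108.2 CPM, and at 6W the KO animals were at 246.5, 242.4, 241.7 and 258.9 CPM. The widest genotype differences fell on members of few counts: Cox4i2 was at 0.76 in hippocampus at P5, -0.87 in hippocampus at 6M and 0.82 in prefrontal cortex at P5, with no adjusted p under 0.05. Ndufaf8 over the ages in hippocampus (0.35, unadjusted p = 0.0155, adjusted p = 0.757 by edgeR) and Cox6b2 over the ages in prefrontal cortex (0.54, unadjusted p = 0.00773, adjusted p = 0.924 by edgeR) were the members of smallest unadjusted p in their tissue. The smallest adjusted p by edgeR was at P5, for Ndufaf8 in hippocampus (0.566) and for Ndufa4l2 in prefrontal cortex (0.569). The genotype effect did not differ between ages or tissues for any member by the test (0 called, background 0.00562% in hippocampus and 0.00551% in prefrontal cortex for ages, and 0.0% for tissues). At an unadjusted p under 0.05, 1, 0 and 1 members were found in these 3 tests, against 4.83%, 3.06% and 3.25% of genes.

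**Figure D5:**
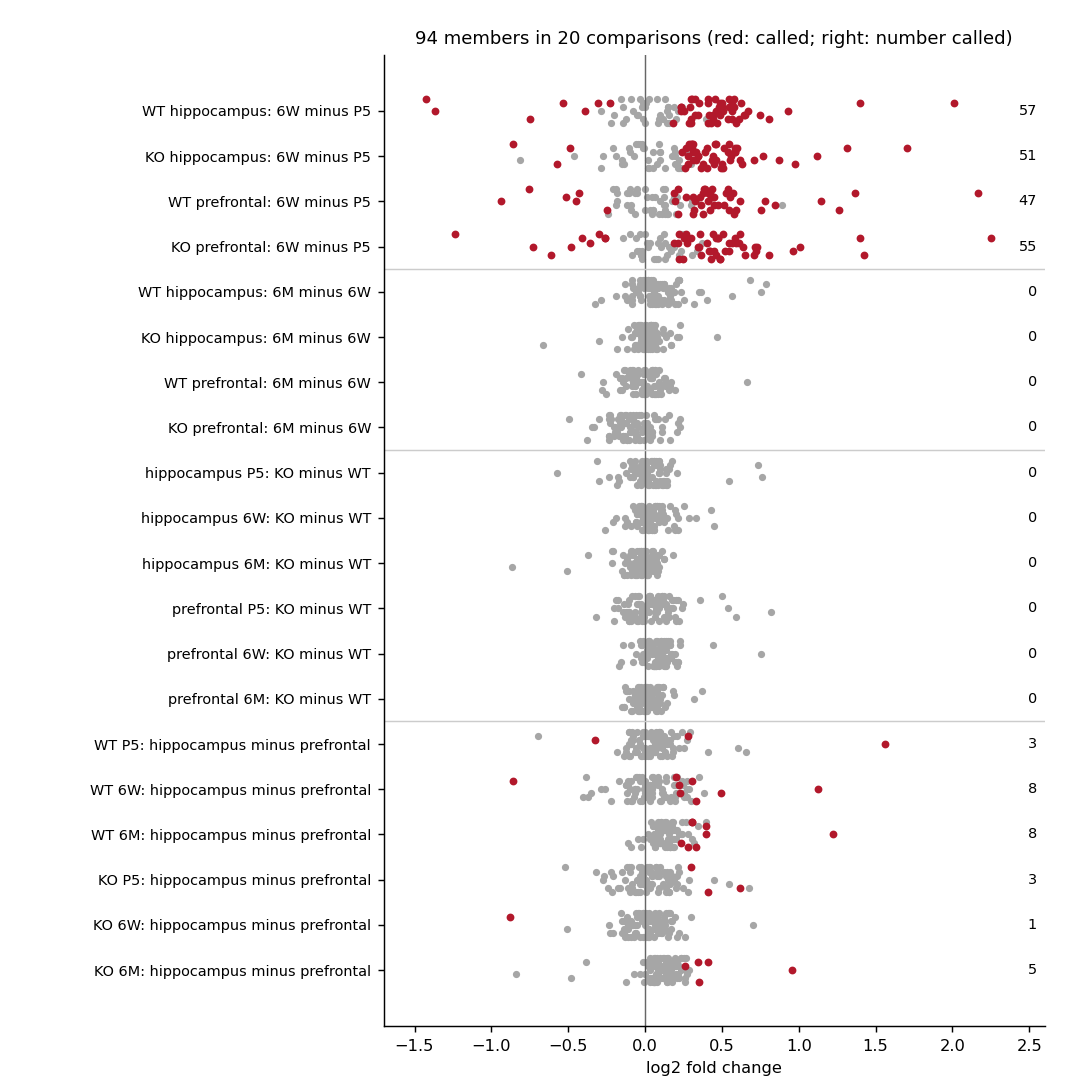
Log2 differences of the 94 members in each comparison of age, genotype and tissue, with called members marked. Spread is widest in the P5 to 6W steps, while no member is called in any comparison of KO with WT or in any step from 6W to 6M.

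Hippocampus and prefrontal cortex differed for few members. In WT, 3 members differed at P5 (background 26.0%), 8 at 6W (26.9%) and 8 at 6M (22.4%), and in KO 3 (24.3%), 1 (26.4%) and 5 (19.7%). These counts depended on single libraries: leaving out 1 gave 1 to 5, 3 to 10 and 1 to 10 in WT and 0 to 8, 0 to 5 and 0 to 8 in KO. The fit took the samples of the tissues as independent. With the replicate number taken as the animal, 9 of 28 named tissue values no longer passed. Cox6b2 was the member that differed most often: it was higher in hippocampus by 1.56 (SE 0.31, adjusted p = 0.000134 by edgeR) at P5, 1.12 at 6W and 1.22 at 6M in WT and by 0.95 at 6M in KO. At P5 the 4 WT hippocampus samples were at 2.86 to 5.25 CPM and the 4 prefrontal samples at 0.666 to 1.85 CPM, without overlap. The choroid plexus marker sums differed between these groups too, at a mean of 5487 CPM in WT hippocampus and 72.4 CPM in WT prefrontal cortex at P5, 753.2 and 294.3 CPM at 6W, and 2079 and 281.1 CPM at 6M, while within the WT hippocampus at 6W and 6M the animal of highest marker sum was among those of lowest Cox6b2, as given above. Their part in this difference was not tested. With opposite sign, Cox6a2 was lower in hippocampus at 6W by -0.86 (adjusted p = 0.0308) in WT and by -0.88 (adjusted p = 0.0222) in KO.

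The other called tissue differences ran from -0.33 to 0.62. Ndufaf8, the partner of Ndufaf5, was higher in KO hippocampus at P5 (0.62, SE 0.22, adjusted p = 0.0339 by edgeR) and at 0.00 in WT, and the assembly factor Ndufaf2 was higher in KO hippocampus at P5 (0.41). Ndufaf5 was lower in WT hippocampus at P5 (-0.33, adjusted p = 0.0156 by edgeR). Whether these differences differ between the genotypes at P5 was not tested. Among accessory subunits of complex I, Ndufa12 was higher in KO hippocampus at P5 (0.30) and in WT hippocampus at 6M (0.31), Ndufa13 at 6M in KO (0.41) and WT (0.39), and Ndufv3 at 6M in WT (0.30). Cox6c, a complex IV subunit, was higher in WT hippocampus at 6W (0.49, SE 0.14, adjusted p = 0.00664), at 167.1, 149.8, 131.9 and 120.0 CPM against 117.5, 103.4, 97.0 and 86.5 CPM in prefrontal cortex. Uqcrh was higher in WT hippocampus at P5 (0.28, adjusted p = 0.0499) and at 6W (0.30, adjusted p = 0.0278). Ndufa5, in the matrix arm of complex I, was higher in WT hippocampus at 6W (0.33) and 6M (0.33) and in KO hippocampus at 6M (0.35). Without the 7 prefrontal libraries of high striatal markers, 0 members were called in WT at 6W and 1 at 6M, and without the 4 hippocampus libraries of high mitochondrial share 4 and 3. With fewer libraries in these fits, the tissue backgrounds of the full fit do not apply to them. The step from P5 to 6W did not differ between the tissues for any member by the test, with 0 called in WT (background 11.5%) and in KO (9.31%) and 3 and 0 at an unadjusted p under 0.05 (23.5% and 20.3% of genes).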

How the data were processed

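The authors deposited a table of raw read counts per gene for 48 samples. Per the submitters' processing notes, reads were demultiplexed with bcl2fastq 2.20.0.422, aligned with STAR 2.4.0 to GRCm38 and counted with HTSeq; strand use and the handling of multimapping reads were not given in the sources used here. Symbols and exon lengths came from GENCODE M21. Counts were tested with edgeR 4.0.16 (TMM, filterByExpr, quasi-likelihood), with the 6 groups of a tissue in 1 fit (24 samples, 18 residual degrees of freedom) and all 48 samples for tissue comparisons, and adjusted over all genes tested. The test was tried on simulated counts. Members and lists were chosen with earlier results of these data known. Named genes are the isoform families, the 7 core subunits of complex I, Sdha, Sdhb, Uqcrc1, Uqcrfs1, Atp5a1 and Atp5b, the largest called changes per class without overlap, and the called members among the 3 smallest p in each direction per tissue comparison; others were chosen after their values were seen. Alternatives were RLE factors, total counts, TMM without mitochondrial genes, other filters, DESeq2 1.42.0, fits of the compared groups only, a replicate block and leaving out libraries.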

Additional observations from a re-analysis of the deposited data

Results flagged for a closer look

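Among 180 groups of 4 animals (15 members in 12 groups), 8 held an animal whose gap to the nearest other exceeded 0.83 of the group's range (Dixon's limit). Chance gives about 1 in 20 groups. In KO hippocampus at 6M, Atp5g1 was low in replicate 3 (83.4 CPM, others 113.1 to 117.1 CPM). In KO hippocampus at 6W, Atp5g2 was high in replicate 1 (12.5 CPM, others 6.76 to 7.49 CPM). In WT hippocampus, Cox6a2 at 6W was high in replicate 2 (1.64 CPM, others 0.995 to 1.07 CPM), as was Ndufs1 at 6W (104.5 CPM, others 95.9 to 96.5 CPM). Cox7a1 at P5 was high in replicate 1 (0.782 CPM, others 0.68 to 0.693 CPM), and Ndufs7 at 6M was low in replicate 3 (78.2 CPM, others 99.6 to 101.7 CPM). In prefrontal cortex, Cox4i2 was high in KO replicate 4 at P5 (1.32 CPM, others 0.570 to 0.640 CPM), and Cox6a2 was high in WT replicate 1 at 6M (2.296 CPM, others 1.29 to 1.42 CPM).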

How the results depend on the processing

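The counts of called members from P5 to 6W ranged over 53 to 57 in WT hippocampus, 44 to 53 in KO hippocampus, 39 to 45 in WT prefrontal cortex and 41 to 57 in KO prefrontal cortex when 1 library was left out. The genotype comparisons and their interactions stayed at 0 under every alternative run. Of 149 named values in this step, total counts only left 101 on their side of the threshold, took 31 below it and 7 past it, and turned 10 that passed with at least 1 of the scalings: Atp5a1 to -0.021 and -0.004 in WT and KO hippocampus, Ndufv2 to -0.138 and -0.03, Uqcrfs1 to -0.248 and -0.199, Cox7a2 to -0.041 in WT hippocampus, Cox6b1 to -0.246 and Sdhb to -0.265 in KO hippocampus, and Atp5b to -0.016 in WT prefrontal cortex. Values that passed with neither scaling could change sign too, such as Uqcrc1 (-0.121 in WT hippocampus) and Sdhb (-0.172 there).

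Over the fits that left out 1 library, named values of this step kept their side of the threshold in 1103 cases, were past it no longer in 72 and newly past it in 17. The 72 include Cox6c, Cox7b, Cox5a, Cox6b2, Atp5b and Atp5g2 in WT prefrontal cortex, Cox7a1 and Cox6a1 in hippocampus, and Sdhd in WT hippocampus. Sdha, Cox8a, Cox6a2, Atp5g3, Ndufs1 and Ndufs7 were not among them in any step.

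Deviations from group means were correlated between samples of the same replicate number. Every such pair lay over 0.1 only for KO against WT hippocampus at 6W (lowest r 0.129) and KO hippocampus from 6W to 6M (lowest r 0.287). Only in the latter did every sample correlate best with its own number. In both comparisons the replicate block called 0 members, as did the fit without it. In the step from P5 to 6W the replicate block left 148 of 149 named values on their side of the threshold and took 1 past it.

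Tissue counts were the least stable. Leaving out 1 library gave 1 to 5 members in WT at P5, 3 to 10 at 6W and 1 to 10 at 6M, and 0 to 8, 0 to 5 and 0 to 8 in KO. Counts moved by over 1.5 times in WT without prefrontal replicate 1 or 3 at P5, without hippocampus replicate 1, 2 or 3 or prefrontal replicate 2, 3 or 4 at 6W, and without hippocampus replicate 1, 2 or 4 or prefrontal replicate 2, 3 or 4 at 6M. In KO they did so without hippocampus replicate 1, 2 or 3 or prefrontal replicate 2, 3 or 4 at P5, without hippocampus replicate 1, 3 or 4 or prefrontal replicate 2, 3 or 4 at 6W, and without hippocampus replicate 1, 2 or 3 or prefrontal replicate 2 or 4 at 6M. Total counts only gave 5, 3 and 3 in WT and 5, 3 and 3 in KO. With no filter there were 1, 5 and 5 in WT and 3 in KO at 6M. A fit of the compared groups alone gave 5 in WT at P5 and 0 in KO at P5 and 6W. A replicate block, with the number taken as the animal, gave 5 in WT and 3 in KO at 6M. Without the libraries of high mitochondrial share there were 4 and 3 in WT and 2 and 0 in KO at 6W and 6M, and without those of high striatal markers 0 and 1 in WT and 0 and 3 in KO; both were chosen after seeing the data. From 6W to 6M, DESeq2 and total counts only each called 1 member in KO prefrontal cortex, and no filter called 1 in WT hippocampus. The test of the step between tissues gave 0 to 1 in WT when a library was left out. The cause was not tested. The tissue backgrounds given above belong to the fit of all libraries and not to these alternatives. Low counts limit Cox4i2, Cox7a1 and Cox6a2 most.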

Other observations

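Cox8b, the muscle isoform of Cox8, lay below the count minimum for membership. It had 0 or 1 count in each of the 16 P5 libraries. At 6W it had 1 to 13 counts in WT hippocampus and 8 to 15 in KO hippocampus, and at 6M 12 to 25 and 8 to 39. In prefrontal cortex it had at most 7 counts at 6W, and at 6M at most 7 in WT and 5 to 14 in KO. Cox8c had no count in any of the 48 libraries.

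Coq8a, a kinase-like protein needed for ubiquinone synthesis, had the highest value in the list of electron carriers and related genes from P5 to 6W, at 3.11 in WT hippocampus and 3.51 in WT prefrontal cortex (adjusted p = 7.63e-17 and 1.97e-15 by edgeR). Cycs, cytochrome c, rose in WT hippocampus (0.27, adjusted p = 0.0156 by edgeR) and was at -0.06 to -0.04 in the other steps; with total counts only it was at -0.06 in WT hippocampus. Of 31 further assembly factors outside the rule, 15, 15, 14 and 16 rose and 3, 3, 4 and 3 fell in WT hippocampus, KO hippocampus, WT prefrontal cortex and KO prefrontal cortex. With total counts only, 9, 7, 9 and 11 rose and 9, 9, 5 and 7 fell.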
